A study of Mus musculus with 6 samples.

Results

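Focal adhesion adaptors and kinases are the cytoplasmic proteins that join integrins to actin filaments and relay signals from them. A list of 37 mouse genes for these proteins was chosen by name, and each of the 37 was found among the 41128 features listed for every library. RNA sequencing had been done on lenses at E15.5 (embryonic age in days), from 3 libraries of conditional knockout (cKO) lenses and 3 of wild-type (WT) lenses. The cKO embryos carried floxed alleles of Itgb1, the β1-integrin gene, on both chromosomes together with the MLR10 Cre transgene, expressed in both the epithelium and the fibre cells of the lens, on a mixed strain background. The WT embryos were C57Bl/6, and their labels name neither floxed alleles nor Cre. Each cKO library was made from 30 pooled lenses and each WT library from 75, and the WT records are marked as repeats of samples of an earlier series. Genotype, Cre, strain, pool size and the series of origin therefore change together and cannot be told apart, and every difference given below is between these groups of libraries. The labels call the libraries biological replicates and do not say how the pools were drawn, so p-values measure the spread between pools.

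Integrins have short cytoplasmic tails and no enzyme activity of their own. Talins and kindlins bind the β tail and switch the receptor on, vinculin strengthens the link from talin to actin, and the complex of ILK, PINCH and parvin forms a second bridge to actin. Focal adhesion kinase (FAK) and Src-family kinases phosphorylate scaffolds such as paxillin and p130Cas, which bring Crk, Dock1, GIT and PIX proteins to the adhesion and so act on the GTPases Rac and Cdc42. In the lens, β1-integrins hold epithelial and fibre cells to the laminin-rich capsule.

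The libraries held 20036554 to 28095318 reads in cKO and 10023049 to 11531139 in WT. Values are CPM (counts scaled to a common library total) and RPKM, which is CPM per kilobase of gene and is used wherever levels of different genes are compared. Itgb1 itself had 236, 275 and 262 CPM in cKO, against 402, 424 and 448 CPM in WT. The deleted exon was not examined separately. The defining lens markers were present. Of 15 lens markers 14 were tested, with 1 higher and 3 lower in cKO. Their summed level was 207438 to 237563 CPM in cKO and 216579 to 233515 CPM in WT. Sox1 was listed at 0 in every library, as were Foxc2 of the periocular mesenchyme list and Neurod1 of the retina list. Whether these zeros mean absent RNA or reads not assigned to the gene was not tested. Markers of other cells were higher in cKO in several lists, where 20.9% of all genes tested were called higher and 15.9% lower. Endothelial markers had 12 of 15 tested higher, with a summed level of 263 to 312 CPM in cKO and 166 to 202 CPM in WT. Macrophage markers had 9 of 9 tested higher (26.6 to 37.9 CPM in cKO, 10.3 to 13.2 CPM in WT) and pericyte markers 5 of 7 higher and 1 lower (145 to 169.7 CPM in cKO, 103 to 131 CPM in WT). Periocular mesenchyme markers had 4 of 6 higher and 1 lower (201 to 241 CPM in cKO, 211 to 254 CPM in WT). Most of that sum was Pdgfra, the marker called lower, which averaged 173 CPM in cKO and 211 CPM in WT. Erythroid markers had 2 of 4 higher and 1 lower (95.2 to 170.2 CPM in cKO, 93.6 to 110.05 CPM in WT), megakaryocyte and platelet markers 1 of 3 higher (8.83 to 11.4 CPM in cKO, 4.91 to 7.54 CPM in WT), and retina markers 0 of 2 (10.9 to 16.2 CPM in cKO, 8.68 to 15.1 CPM in WT). These are bulk samples, in which fewer cells of a type and less RNA per cell cannot be told apart, and the part of such cells in the members' differences was not tested.

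Most of the adhesion genes were well expressed in the E15.5 lens. The median level of the 34 members that passed the filter (at least 1 CPM in at least 3 libraries) was 8.98 RPKM in cKO and 8.94 RPKM in WT, against 5.17 RPKM in cKO and 5.09 RPKM in WT over the 11941 genes tested, and 22 of the 34 lay above the WT median of the tested genes. Pdlim7, which encodes a PDZ and LIM protein of actin filaments, was the highest in WT (37.8 RPKM in cKO, 48.1 RPKM in WT). It was followed in WT by Bcar1, the p130Cas scaffold (35.2 RPKM in cKO, 43.5 RPKM in WT), Actn1 (33.7 RPKM in cKO, 37.8 RPKM in WT) and the adaptor gene Crk (42.6 RPKM in cKO, 37.0 RPKM in WT). The cKO order of these 4 genes put Crk first and Actn1 last. At the low end of the tested members stood Arhgef6 (0.129 RPKM in cKO, 0.128 RPKM in WT) and Tns1 (0.739 RPKM in cKO, 0.476 RPKM in WT). The members left out by the filter were Fermt1, Ptk2b and Lims2, and each has a paralog that was plainly expressed.

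**Figure D1:**
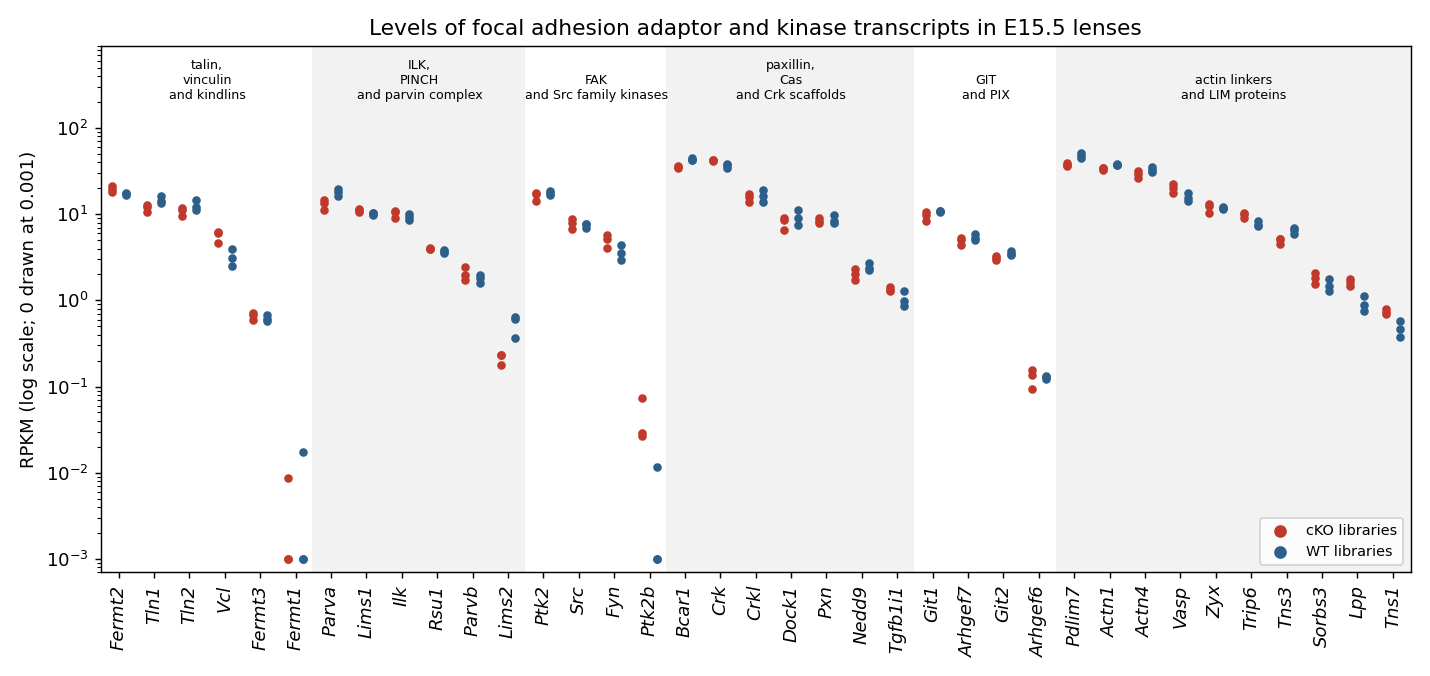
RPKM of the 37 members in each library on a log axis, grouped by role and ordered by WT level, with cKO libraries (red) left of WT libraries (blue) and values of 0 drawn at 0.001. For most genes the groups lie close together, over a range that runs from about 0 for Fermt1 to 48.1 RPKM for Pdlim7 in WT.

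In cKO lenses 7 of the 34 tested members were called higher and 5 lower (limma on log2(CPM + 1), p adjusted over all 11941 genes by the Benjamini-Hochberg method, threshold 0.05). Among all genes tested, 20.9% were called higher and 15.9% lower, together 36.9%, so the members' share of 35.3% was near the background. The higher genes were Vcl, Lpp, Tns1, Fyn, Vasp, Trip6 and Crk, and the lower ones Parva, Tns3, Pdlim7, Tln1 and Bcar1. The median log2 fold change was 0.0068 over the tested members and 0.026 over all genes tested, and the median size of change, regardless of sign, was 0.19 and 0.21. None of the 34 changed by 2-fold or more, and the log2 fold changes of the 22 not called ran from -0.25 to 0.31. The groups did not overlap in 17 of the 34 members (50.0%, against 48.1% of all genes tested), 9 of them higher and 8 lower in cKO (against 26.9% and 21.2% of all genes tested). Correcting each library for GC content and gene length turned the calls over all genes to 1907 higher and 2307 lower, against 2499 higher and 1904 lower without it.

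By edgeR on the recovered reads, 7 members were higher and 9 lower, where 20.0% of all genes tested were called higher and 20.0% lower. The count of lower members was 9 with TMM or RLE scaling, where Tln2, Actn1, Actn4 and Git1 were also called, and the count of higher members was 3 without cKO replicate 2 or 3 or without WT replicate 2 and 4 without WT replicate 1. Of the 12 calls, 7 were made under each of the 19 alternatives run, namely Vcl, Lpp and Tns1, which were higher, and Parva, Tns3, Pdlim7 and Bcar1, which were lower. Replicate 1 of each group tended to be low in these genes. cKO replicate 1 held the lowest cKO value in 29 of the 34 members (85.3%, against 57.2% of all genes tested) and WT replicate 1 the lowest WT value in 21 (61.8%, against 39.6%).

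**Figure D2:**
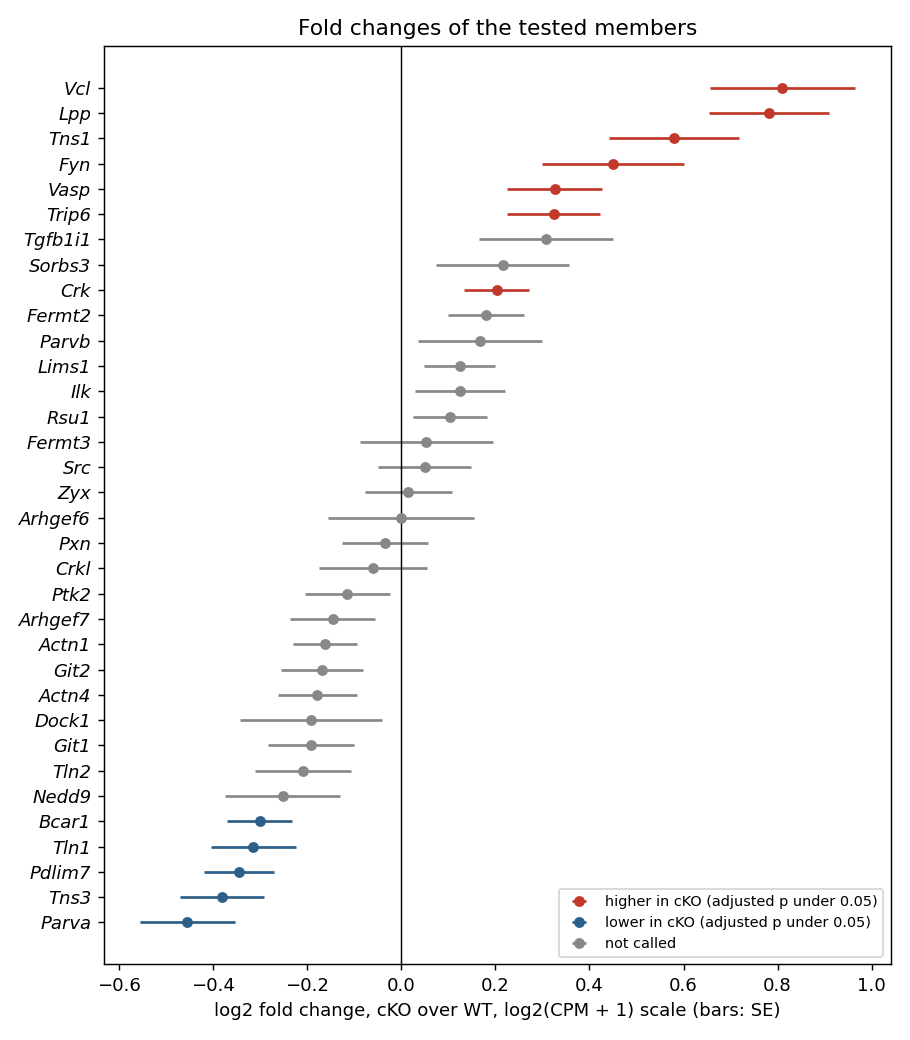
Log2 fold change of cKO over WT for the 34 tested members on the log2(CPM + 1) scale, with standard errors as bars, coloured by whether the gene was called higher, lower or neither. The changes run from -0.45 for Parva to 0.81 for Vcl.

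In the group of talins, vinculin and kindlins, 1 of 5 tested members was called higher, the vinculin gene Vcl, and 1 lower, the talin gene Tln1. The shares over all genes tested were 20.9% higher and 15.9% lower. Vcl (ENSMUSG00000021823; chromosome 14, 20929398 to 21033676, plus strand) had 24.5, 33.0 and 32.03 CPM in cKO, against 13.1, 16.4 and 20.7 CPM in WT. The lowest cKO library lay above the highest WT library. The difference was 0.81 on the log2 scale (SE 0.154, limma adjusted p = 0.00207), and it stayed between 0.66 and 0.97 when any 1 library was left out. In Vcl 25.3% of the 32-base words of its transcripts are shared with Ap3m1, a gene on the opposite strand whose exons overlap its own, and the library kit does not mark strand. How reads from the shared words were assigned is not known, so the Vcl value is uncertain in that part. Ap3m1 averaged 69.0 ± 5.19 CPM in cKO and 72.6 ± 1.58 CPM in WT (SD, n = 3 each; adjusted p = 0.483 by limma).

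The sequence upstream of the Vcl start site is shown because vinculin is a classical target of serum response factor, which binds CArG boxes, and because Vcl had the highest log2(CPM + 1) fold change of the 34 tested members. The 250 bases before the start site (RefSeq, GRCm38.p6, chr14:20929148-20929397, plus strand) hold a CArG box that begins 227 bases upstream and a GGAATG word, the core of TEAD factor sites, that begins 143 bases upstream, both in capitals.
Vcl: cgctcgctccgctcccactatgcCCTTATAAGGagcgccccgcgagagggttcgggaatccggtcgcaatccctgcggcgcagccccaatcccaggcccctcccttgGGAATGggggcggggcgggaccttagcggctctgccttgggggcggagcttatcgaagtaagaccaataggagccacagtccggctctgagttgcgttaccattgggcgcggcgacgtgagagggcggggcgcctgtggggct

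Promoters of 29 of the 37 members, with 39 start sites, were found in the RefSeq table of windows from 250 bases before to 50 after each start. CArG boxes, read on both strands, were found in 4 of the 39 member promoters, 1 each of Vcl, Trip6, Fermt2 and Rsu1. They were found in 1.63% of all 32851 promoters of the table. The 30-base windows around the boxes are given with the box in capitals, to show how far the matches differ from one another.
Vcl (chr14:20929161-20929190, plus strand): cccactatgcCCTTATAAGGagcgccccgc
Trip6 (chr5:137314221-137314250, minus strand): gtggtcgtctCCAAAATTGGggaggaaggg
Fermt2 (chr14:45530250-45530279, minus strand): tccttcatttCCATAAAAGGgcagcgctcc
Rsu1 (chr2:13271368-13271397, minus strand): aaacagttctCCTAATTTGGgaagtgtcag
The Fermt2 box begins 204 bases upstream of the start site, and those of Trip6 and Rsu1 lie just after it, at bases 2 and 29 of the transcript. Of these 4 genes, Vcl and Trip6 were called higher, while Fermt2 (log2 fold change 0.18, adjusted p = 0.0964 by limma) and Rsu1 (0.10, adjusted p = 0.321) were not called. Among the 34 tested members 7 were called higher, and among all genes tested 20.9%. Lpp and Tns1, with the next highest fold changes on that scale, have no CArG box in these windows. The word TGANTCA, bound by AP-1, was found in 2 of the 39 member promoters (Actn4 and Zyx) and in 7.81% of all promoters. GGAATG was found in 6 of the 39 and in 14.7% of all promoters. The EGR word GCGTGGGCG was found in 0 of the 39 and in 0.612% of all promoters. A match describes letters only. The motifs were chosen with earlier results of these data known, and whether the boxes bear on the calls was not tested.

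Talin 1, the main link between integrin tails and actin, moved the other way. Tln1 had 104, 125 and 119 CPM in cKO, against 133, 140.4 and 161 CPM in WT, without overlap (log2 fold change -0.31, SE 0.0902, adjusted p = 0.0149 by limma). Leaving out cKO replicate 1 or WT replicate 3 ended the call, with a highest adjusted p of 0.0549 over the alternatives. Its paralog Tln2 had 118, 142 and 138 CPM in cKO, against 136, 147 and 179 CPM in WT. The groups overlapped and the gene was not called (-0.21, adjusted p = 0.129), although it was called with TMM, RLE, edgeR, DESeq2, limma-voom and the replicate block and without WT replicate 1. Per length the 2 talin genes were expressed nearly equally, with Tln1 at 11.9 RPKM in cKO and 14.8 RPKM in WT and Tln2 at 10.9 RPKM in cKO and 12.6 RPKM in WT.

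Kindlin 2, encoded by Fermt2, was the kindlin of these lenses. Fermt2 had 67.6, 79.6 and 73.3 CPM in cKO, against 62.7, 66.7 and 64.6 CPM in WT, a difference without overlap that was not called except without cKO replicate 1. Fermt3, the kindlin of blood cells, had 1.75, 1.83 and 1.53 CPM in cKO, against 1.73, 1.58 and 1.497 CPM in WT (log2 fold change 0.054, adjusted p = 0.797 by limma). These values rested on 35, 37 and 43 reads in cKO and 20, 18 and 15 in WT. Fermt1, the kindlin of surface epithelia, had 0, 1 and 0 reads in cKO, against 0, 0 and 1 in WT. A count of 0 allows up to 0.107 to 0.299 CPM at these depths, counting error only.

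In the complex of ILK, PINCH and parvin, 1 of 5 tested members was called, where 36.9% of all genes tested were called. Parva, which encodes α-parvin (chromosome 7, 112427505 to 112591692, plus strand, GENCODE M21 on GRCm38), had 114, 150.2 and 136 CPM in cKO, against 164, 185 and 199 CPM in WT. Every cKO library lay below every WT library, at -0.45 on the log2 scale (SE 0.102, adjusted p = 0.00394 by limma), the lowest of the tested members. Parvb, which encodes β-parvin, had 7.69, 10.8 and 8.79 CPM in cKO, against 7.98, 7.10 and 8.78 CPM in WT, with overlapping groups (0.17, adjusted p = 0.348). α-Parvin transcripts made up 86.6%, 85.8% and 87.0% of the summed RPKM of Parva and Parvb in cKO, against 89.9%, 91.9% and 90.8% in WT. The 2 sets of shares did not overlap.

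The other members of the complex differed less. Lims1, which encodes PINCH1, had 54.8, 52.2 and 56.8 CPM in cKO, against 48.2, 51.1 and 50.6 CPM in WT. The groups did not overlap and the gene was not called (log2 fold change 0.12, adjusted p = 0.215), and its value was -0.10 once GC content and gene length were corrected for. Rsu1, which encodes a partner of PINCH1, had 36.8, 35.7 and 35.3 CPM in cKO, against 34.7, 33.3 and 32.1 CPM in WT, also without overlap and not called. Lims2, which encodes PINCH2, was below the filter with 6, 8 and 11 reads in cKO, against 12, 7 and 11 in WT, or 0.299, 0.396 and 0.392 CPM in cKO and 1.04, 0.614 and 1.10 CPM in WT. With no filter on low values Lims2 was called lower (-0.48, adjusted p = 0.0287 by limma). Ilk, the pseudokinase at the centre of the complex, had 25.1, 30.2 and 29.0 CPM in cKO, against 23.7, 27.4 and 25.8 CPM in WT (0.12, adjusted p = 0.330). That value is uncertain, since 77.9% of the 32-base words of Ilk transcripts are shared with other genes, 65.6% with Taf10 alone. Taf10 overlaps Ilk on the opposite strand and averaged 28.6 ± 2.21 CPM in cKO and 25.8 ± 1.13 CPM in WT (SD, n = 3 each).

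Of the kinases, Fyn rose and FAK and Src were not called. Fyn had 17.8, 22.8 and 25.4 CPM in cKO, against 12.7, 15.52 and 19.4 CPM in WT. The lowest cKO library lay below the highest WT library, and the call (log2 fold change 0.45, SE 0.152, adjusted p = 0.0358 by limma) was lost without cKO replicate 2 or 3, without WT replicate 1 or 2, and with no filter on low values. Src had 29.4, 38.1 and 34.7 CPM in cKO, against 33.99, 30.7 and 33.5 CPM in WT (0.050, adjusted p = 0.723). Ptk2, the FAK gene, had 70.7, 87.6 and 85.0 CPM in cKO, against 82.6, 87.4 and 92.7 CPM in WT (-0.11, adjusted p = 0.345). It was called lower, at -0.18, once GC content and gene length were corrected for. Ptk2b, which encodes the FAK relative PYK2 that is known from neurons and blood cells, was below the filter, with 11, 4 and 6 reads in cKO, against 1, 0 and 0 in WT. With no filter it was called higher (0.35, adjusted p = 0.0253 by limma), and the part of other cells in this difference was not tested.

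The scaffolds had 1 of 7 members higher and 1 lower, where 20.9% of all genes tested were called higher and 15.9% lower. Bcar1, which encodes the stretch-sensitive scaffold p130Cas (chromosome 8, 111710474 to 111743809, minus strand), had 109, 115 and 111 CPM in cKO, against 136, 135 and 142 CPM in WT. The groups were tight and far apart, with a log2 fold change of -0.30 (SE 0.0691, adjusted p = 0.00442 by limma). Nedd9, the related Cas scaffold, had 8.19, 10.8 and 9.54 CPM in cKO, against 10.5, 12.9 and 11.1 CPM in WT, with overlap (-0.25, adjusted p = 0.122). Like Ptk2 it was called lower after the correction for GC content and length, with or without the replicate block, at -0.32. Crk, an SH2 and SH3 adaptor that binds p130Cas, had 198, 203 and 204 CPM in cKO, against 165, 179 and 181 CPM in WT. It was called without overlap (0.20, SE 0.0694, adjusted p = 0.0346 by limma), and lost its call in 9 of the 19 alternatives, where its adjusted p rose as high as 0.430. Its paralog Crkl (-0.060, adjusted p = 0.714) and the Rac activator gene Dock1 (-0.19, adjusted p = 0.352) overlapped between the groups. Dock1 was called lower, at -0.22, under the replicate block with GC content and gene length correction (adjusted p = 0.00697 by limma).

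Paxillin, the hub scaffold encoded by Pxn, had 64.3, 74.0 and 69.1 CPM in cKO, against 64.2, 68.8 and 80.0 CPM in WT (log2 fold change -0.034, adjusted p = 0.802). Tgfb1i1, which encodes the paxillin relative Hic-5, had 4.69, 5.10 and 4.66 CPM in cKO, against 3.56, 3.07 and 4.59 CPM in WT. The groups were separate by a small margin, and the gene was called only without WT replicate 3 among the alternatives (0.31, adjusted p = 0.107 with all libraries).

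The GIT and PIX genes, whose proteins form a scaffold that recruits PAK kinases, had 0 of 4 called, against 36.9% of all genes tested. Their log2 fold changes were -0.19 for Git1, -0.17 for Git2, -0.15 for Arhgef7 and -0.0012 for Arhgef6. Git1 had 39.9, 50.9 and 47.3 CPM in cKO, against 52.7, 53.4 and 51.4 CPM in WT, and Git2 21.6, 23.9 and 22.2 CPM in cKO, against 27.1, 24.3 and 25.0 CPM in WT. Both were without overlap and had an adjusted p of 0.116 and 0.150 by limma, and Git1 was called with TMM or RLE scaling, edgeR and limma-voom and without cKO replicate 2. Git2 was called lower once GC content and gene length were corrected for, with or without the replicate block, at -0.27. Arhgef6, the αPIX gene, rested on 16, 27 and 33 reads in cKO and 12, 13 and 11 in WT.

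Of the 10 actin linkers and LIM proteins, 4 were called higher and 2 lower, where 20.9% of all genes tested were higher and 15.9% lower, and the difference between these shares was not tested. Lpp, which encodes the LIM protein lipoma-preferred partner (chromosome 16, 24393507 to 24992578, plus strand), had 23.3, 28.3 and 25.8 CPM in cKO, against 12.1, 14.03 and 18.1 CPM in WT. The groups were well apart, with a log2 fold change of 0.78 (SE 0.128, adjusted p = 0.000513 by limma), the smallest adjusted p of the members. Trip6, a LIM protein of the same family, had 15.8, 18.2 and 17.9 CPM in cKO, against 14.6, 13.3 and 12.9 CPM in WT (0.32, adjusted p = 0.0205), and its call was lost in 5 of the 19 alternatives. Zyx, the zyxin gene and the best known of that family, had 38.9, 49.1 and 47.2 CPM in cKO, against 42.9, 44.8 and 45.5 CPM in WT (0.015, adjusted p = 0.917, and below 0 with TMM or RLE scaling). Vasp, which binds zyxin and promotes actin assembly, had 43.3, 54.3 and 49.1 CPM in cKO, against 35.1, 37.7 and 43.5 CPM in WT. It was called (0.33, SE 0.101, adjusted p = 0.0219 by limma) although the lowest cKO library lay just under the highest WT library, and leaving out cKO replicate 2 or 3 or WT replicate 1 or 2 ended the call.

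The tensins, which join integrin tails to actin, went opposite ways. Tns1 (chromosome 1, 73910231 to 74124449, minus strand) had 9.23, 10.7 and 9.68 CPM in cKO, against 5.03, 6.22 and 7.78 CPM in WT (log2 fold change 0.58, SE 0.139, adjusted p = 0.00562 by limma). Tns3 (chromosome 11, 8431652 to 8664535, minus strand) had 49.9, 58.1 and 57.7 CPM in cKO, against 65.5, 73.1 and 78.0 CPM in WT (-0.38, SE 0.0895, adjusted p = 0.00507 by limma). Neither gene overlapped between the groups. Tns1 made up 13.4%, 13.4% and 12.3% of the summed RPKM of these 2 tensins in cKO, against 6.05%, 6.66% and 7.71% in WT, so Tns3 remained the more abundant transcript in each library.

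Pdlim7 (chromosome 13, 55495795 to 55513676, minus strand) had 190.3, 178 and 181 CPM in cKO, against 252, 230.2 and 218 CPM in WT, without overlap (log2 fold change -0.34, SE 0.0745, adjusted p = 0.00306 by limma). The α-actinins, which crosslink actin filaments, were not called. Actn1 had 123, 131 and 130.3 CPM in cKO, against 142, 146 and 142 CPM in WT, without overlap (-0.16, adjusted p = 0.0791). Actn4 had 133, 161 and 146 CPM in cKO, against 156, 165 and 176 CPM in WT, with overlap (-0.18, adjusted p = 0.111). Both were called lower with TMM or RLE scaling, edgeR, DESeq2 and limma-voom, and Actn4 also with the replicate block and without cKO replicate 2. Sorbs3, which encodes the vinculin-binding protein vinexin, had 4.49, 5.99 and 5.34 CPM in cKO, against 5.12, 4.30 and 3.79 CPM in WT (0.22, adjusted p = 0.251).

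**Figure D3:**
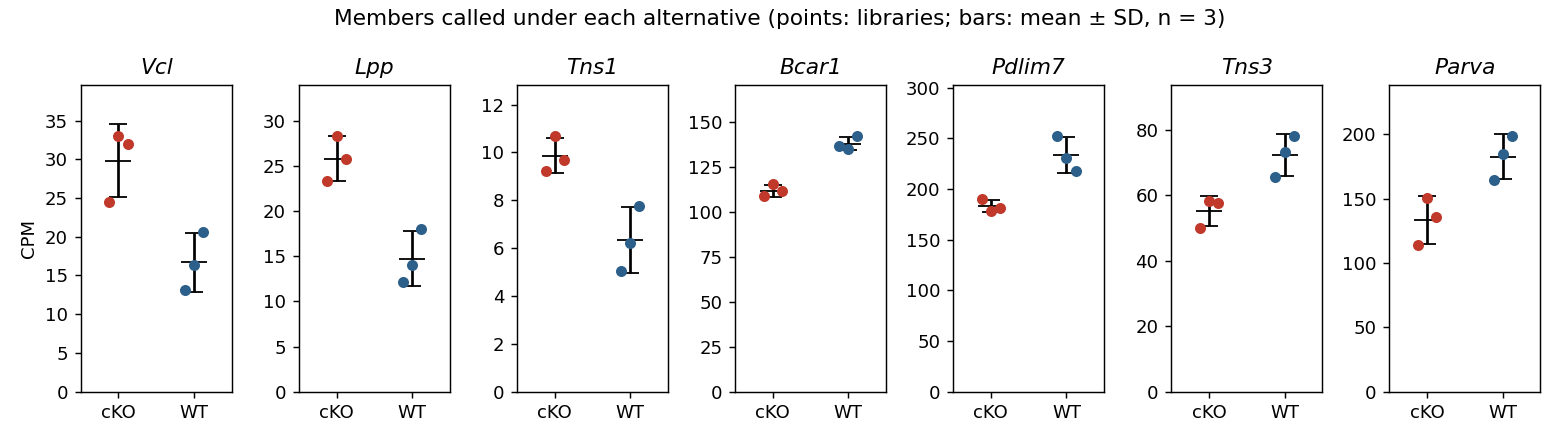
CPM in each library of the 7 members called under every alternative run, with the mean and SD (n = 3), cKO left of WT and each axis starting at 0. In each of the 7 panels the cKO points lie wholly above (Vcl, Lpp, Tns1) or wholly below (Bcar1, Pdlim7, Tns3, Parva) the WT points.

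The balance within related genes was compared as the log2 ratio of (CPM + 1) in each library, over 14 pairs. With 3 libraries against 3 an exact two-sided permutation test cannot go below p = 0.1, and the smallest value adjusted over the 14 pairs was 0.156, so no pair can pass the threshold by this test. In the 11 pairs with both members tested, the cKO and WT ratios did not overlap in 6. No share over other gene pairs was computed, and the 48.1% of single genes without overlap is a different measure. The ratio of Tns1 to Tns3 was -2.31, -2.34 and -2.46 in cKO, against -3.46, -3.36 and -3.17 in WT, a difference of 0.96. The ratio of Parva to Parvb was 3.72, 3.68 and 3.81 in cKO, against 4.201, 4.52 and 4.35 in WT, a difference of -0.62. Both lay far outside the spread within a group, with an exact permutation p = 0.1, the smallest this test can give here. The other 4 pairs without overlap were Src to Fyn (-0.40), Pxn to Tgfb1i1 (-0.34), Trip6 to Zyx (0.31) and Tln1 to Tln2 (-0.11). Crk to Crkl (0.26), Arhgef6 to Arhgef7 (0.14), Bcar1 to Nedd9 (-0.048), Git1 to Git2 (-0.024) and Actn1 to Actn4 (0.016) overlapped. In the 3 pairs with a member below the filter, the low gene rested on so few reads that the ratio follows the added 1 CPM.

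**Figure D4:**
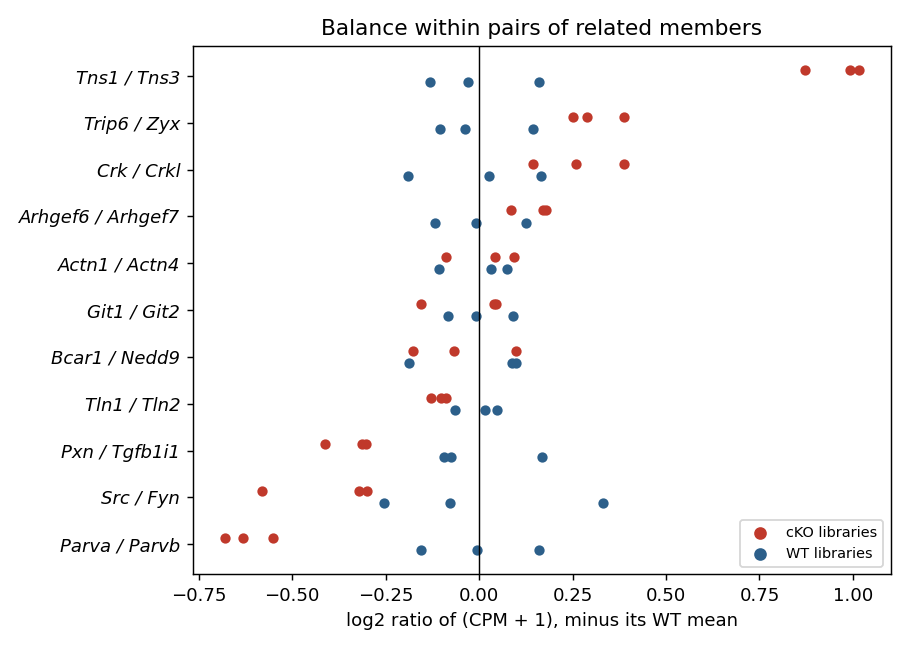
Log2 ratio of (CPM + 1) between the members of 11 pairs in each library, shown relative to the WT mean of the pair, with cKO libraries above WT libraries in each row. Tns1 to Tns3 shifts most to the right in cKO and Parva to Parvb most to the left, by 0.96 and -0.62.

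Other genes of the pathway were counted from 3 lists chosen by name. Over all genes tested, 20.9% were called higher and 15.9% lower, with a median log2 fold change of 0.026. In either direction 35.3% of further adhesion adaptors, 55.8% of partners of FAK and Src and 37.5% of actin assembly genes were called. The share of all genes tested was 36.9%, and the differences between these shares were not tested. Further adhesion adaptors had 11 of 34 tested higher in cKO and 1 lower, with a median log2 fold change of 0.13. The 3 with the smallest adjusted p were Cnn2, which encodes calponin 2 (29.5 ± 1.23 CPM in cKO, 13.9 ± 1.04 CPM in WT), Cald1, which encodes caldesmon (505 ± 48.4 CPM in cKO, 273 ± 45.8 CPM in WT), and Flnc, which encodes filamin C (2.56 ± 0.769 CPM in cKO, 0.519 ± 0.0802 CPM in WT; SD, n = 3 each throughout). Partners of FAK and Src had 16 of 43 higher and 8 lower, with a median of 0.16. Among them the Rac effector kinase gene Pak1, which had the smallest adjusted p, rose to 6.44 ± 0.919 CPM in cKO, against 1.501 ± 0.404 CPM in WT (log2 fold change 1.58, adjusted p = 9.02e-06 by limma), and Rap1a (0.59) and Rock1 (0.57) rose too. Genes of actin assembly had 12 of 40 higher and 3 lower, with a median of 0.12. Myl9, a myosin light chain gene of contractile cells, rose by 1.28, Tpm1 by 0.75 and Abi2, a subunit gene of the WAVE complex, by 0.43. Calponins, caldesmon and Myl9 are also known from pericytes and other contractile cells. Of the 7 pericyte markers tested, 5 were called higher and 1, Notch3, was called lower. Any link between these markers and the genes named here was not tested.

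**Figure D5:**
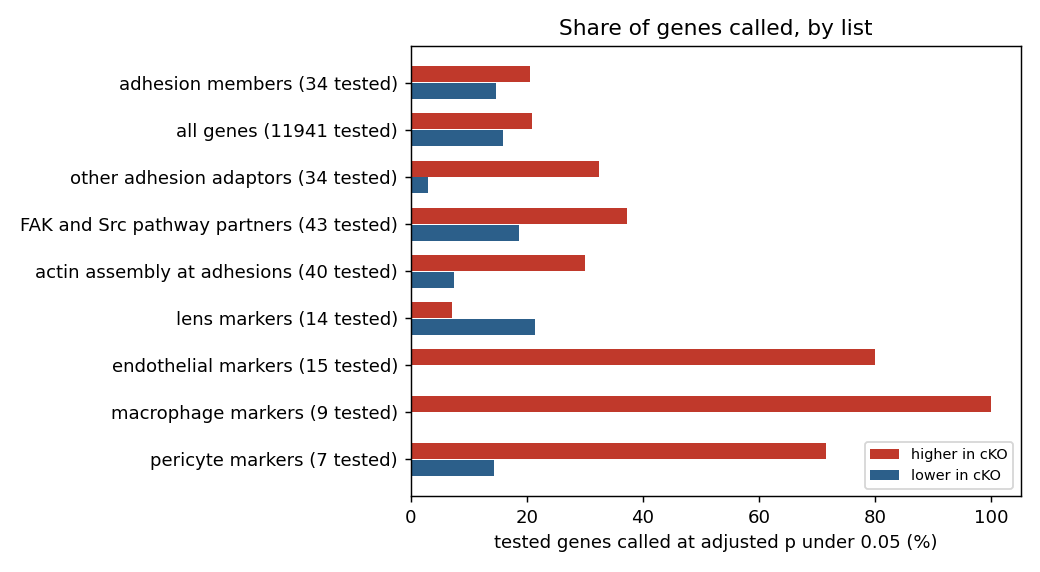
Percentage of tested genes called higher (red) and lower (blue) in cKO for the 34 adhesion members, all genes tested, 3 lists of related genes and 4 marker lists. The members' bars stand near those of all genes (20.9% and 15.9%), whereas endothelial and macrophage markers were mostly or wholly higher.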

How the data were processed

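RNA came from pooled E15.5 lenses. Per the labels' protocols it was isolated on columns, selected for poly-A tails and made into libraries with a kit that does not mark strand, then read as single ends of 50 bases. The authors deposited CPM and RPKM per gene, and edgeR and GRCm38 are named in the submitters' processing notes. Neither the aligner nor the counting program is named there or in the labels. The deposited CPM values were whole multiples of 1 read within 0.02 reads in 100% of cases, so reads per gene and library totals were recovered. 1 read was worth 0.0356 to 0.0499 CPM in cKO and 0.0867 to 0.0998 CPM in WT. There were 3 pools a group, and both their number and the depth limit the precision.

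A gene was kept where 3 or more libraries reached 1 CPM (11941 genes), and log2(CPM + 1) was fitted with limma 3.58.1 (trend and robust options, R 4.3.3) with group as the only term. P-values were adjusted by the Benjamini-Hochberg method over all genes tested, and a gene was called at an adjusted p under 0.05. Fold changes are on the log2(CPM + 1) scale and understate the change of low genes. edgeR 4.0.16 and DESeq2 1.42.0 were run on the recovered reads as alternatives, and edgeR called 2388 genes higher and 2388 lower. The script was tested on simulated data. Every member is named, and of the related genes the 3 with the smallest adjusted p in each list. The members, lists, pairs and motifs were chosen with earlier results of these data known. Positions are from GENCODE M21 on GRCm38 and promoters from RefSeq on GRCm38.p6.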

Additional observations from a re-analysis of the deposited data

How the results depend on the processing

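The 19 alternatives changed the scaling, the filter, the pseudocount, the model, the depth or the libraries used. The count of higher members was 7 and stayed at 5 to 7 under the settings that kept all libraries, and it was 3 to 8 when 1 library was left out (3 without cKO replicate 2, cKO replicate 3 or WT replicate 2, and 8 without cKO replicate 1). The count of lower members was 5. It was 9 with RLE, TMM or TMM without crystallins, edgeR, limma-voom, or the replicate block with GC content and gene length correction, 8 with DESeq2 or with that correction alone, and 4 to 7 with 1 library left out. The causes were not tested. Among all genes 1907 to 2916 were higher and 1689 to 2558 lower with all libraries, and 1819 to 2403 higher and 1334 to 1934 lower with 1 left out.

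No called member reversed. The Zyx log2 fold change turned to -0.014 with RLE, -0.013 with TMM, -0.015 with TMM without crystallins, -0.0082 with edgeR, -0.0098 with DESeq2 and -0.012 with limma-voom. With GC content and gene length correction, with or without the block, Lims1 was -0.10, Rsu1 -0.019 and Pxn 0.081. Arhgef6 was 0.13 on thinned reads. Leaving out 1 library gave -0.081 to 0.11 for Arhgef6, -0.18 to 0.061 for Crkl, -0.10 to 0.054 for Pxn, -0.033 to 0.15 for Src and -0.049 to 0.12 for Zyx, and, for pair ratios, -0.14 to 0.016 for Bcar1 to Nedd9, -0.066 to 0.042 for Git1 to Git2 and -0.038 to 0.068 for Actn1 to Actn4.

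Deviations from the group means correlated at 0.33, -0.034 and 0.15 between same-numbered libraries and from -0.31 to 0.21 between libraries of different number. The numbers were not taken as pairs in the main fit, and whether they mark pairs was not tested. A replicate block gave 2916 higher and 2249 lower genes, and 7 higher and 7 lower members, adding Actn4 and Tln2. With GC content and gene length correction the block called neither Actn4 nor Tln2, and called Dock1 (-0.22), Git2, Nedd9 and Ptk2 lower.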
